A study of Mus musculus with 3 samples.

Results

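Neutrophil granule protein genes were followed in the immune TME of 4T1 mammary tumors. The 8 genes, Ngp, Camp, Ltf, Lcn2, Mmp8, Mmp9, Wfdc21 and Cd177, were chosen by name from the 32285 genes measured, and all 8 were present in each library. Their levels were read in 5501 neutrophils among 12472 kept cells. Cells were kept from 1500 UMIs (tags that mark each captured transcript once) and 300 genes upward when no more than 20% of their UMIs were mitochondrial, and a neutrophil was a kept cell that held a transcript of Csf3r or Cxcr2 and none of Fn1, C1qa or Cd3e. The question was whether the granule transcripts of these tumors came from many neutrophils or from a few cells, and how each gene differed between vehicle, p38i and p38KO.

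Female BALB/c mice of 6 to 8 weeks received 200000 4T1-luc cells, a luciferase-expressing mouse mammary carcinoma line, in the mammary fat pad. Vehicle and p38i mice carried tumors with intact p38α and were gavaged daily from day 4 for 10 days with DPBS or with 30 mg/kg of the kinase inhibitor LY2228820 (ralimetinib), which reaches host and tumor cells alike. p38KO mice carried 4T1-luc cells of a single clone, H9, in which p38α was inactivated by CRISPR-Cas9, so the neutrophils themselves kept the gene. On day 14, tumors of 3 mice per group were pooled and live CD45+ cells were sorted and sequenced as 1 library per group by the 10x Genomics 3' method. No replicate library exists, so no test between groups was made. All intervals are at 95% and hold counting error alone, without the spread among mice, clones or preparations.

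Neutrophils make their granules in sequence while they mature in the bone marrow. Azurophil granules with myeloperoxidase and elastase form in promyelocytes, specific granules with lactoferrin, cathelicidin and neutrophil granule protein form in myelocytes and metamyelocytes, and gelatinase granules form in band cells. Transcription of most of these genes ends before the cell leaves the marrow, while the proteins stay in the granules, so transcripts of specific granule proteins mark cells that have only recently matured.

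The gated cells carried the transcripts of neutrophils. Levels are given as CPM (UMIs per 1000000 UMIs summed over the gate), and values given 3 at a time follow the order vehicle, p38i, p38KO. The 9 fixed neutrophil markers, among them S100a8, S100a9 and the gate genes Csf3r and Cxcr2, summed to 182178, 204308 and 137571 CPM. In kept cells with Cd3e they summed to 4320, 10618.5 and 3316 CPM. All 9 reached 10 CPM in both kinds of cell in every library, so that limit does not tell them apart. S100a9 was detected in 96.9% to 98.8% of gated neutrophils and in 44.6% to 68.8% of cells with Cd3e. The gate held 1843, 2283 and 1375 neutrophils, with 5615157, 6608815 and 3671051 UMIs and a median of 2478, 2209 and 2156 UMIs per cell. Signs of other cells moved with the groups: the 6 macrophage markers summed to 352, 418 and 563 CPM, the 5 mast cell or basophil markers to 2.49, 51.9 and 243 CPM, and the median mitochondrial share was 0.325%, 0.389% and 0.552%. Their part in the values below was not tested. A further gate also left out cells with Csf1r, Ccr2, Ly6c2, Siglecf, Cpa3 or Cd79a. It was not filtered on the macrophage markers Apoe, C1qb and C1qc. There 7 members were called lower in p38KO, the same as in the main gate, by the rule given with the ratios. In that gate 212 of all genes were called lower and 713 higher. Pairs of libraries shared 5 to 9 cell barcodes.

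Ngp (neutrophil granule protein, a cystatin-like protein), Camp (cathelicidin, an antimicrobial peptide) and Ltf (lactoferrin, which binds iron) are specific granule genes, and all lie within 1.20 Mb of chromosome 9. On GRCm38, Ngp spans chr9:110419747-110423012 on the plus strand, Camp spans chr9:109847379-109849617 on the minus strand and Ltf spans chr9:111019271-111042767 on the plus strand. RefSeq (GRCm38.p6) gave promoters for 6 of the 8 members, and those of Ngp (chr9:110419558-110419807), Camp (chr9:109849457-109849706) and Ltf (chr9:111019042-111019291) are shown because in vehicle and p38i the transcripts of these genes were held by few cells. Each line gives the 250 bases before the RefSeq start, 5' to 3' on the gene's strand, and capitals mark matches on either strand to TTGCNNAA, the core of sites of the C/EBP factors that drive specific granule genes, or to GAGGAA, a core of sites of PU.1.
Ngp: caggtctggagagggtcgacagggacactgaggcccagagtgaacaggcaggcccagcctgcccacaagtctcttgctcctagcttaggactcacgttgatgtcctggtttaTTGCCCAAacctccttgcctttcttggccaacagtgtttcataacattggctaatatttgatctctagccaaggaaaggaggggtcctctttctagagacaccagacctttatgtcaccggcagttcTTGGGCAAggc
Camp: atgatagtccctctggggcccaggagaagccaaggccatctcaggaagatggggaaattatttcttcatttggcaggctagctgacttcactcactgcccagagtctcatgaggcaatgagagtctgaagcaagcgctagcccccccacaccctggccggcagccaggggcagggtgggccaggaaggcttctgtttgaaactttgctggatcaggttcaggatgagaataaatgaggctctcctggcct
Ltf: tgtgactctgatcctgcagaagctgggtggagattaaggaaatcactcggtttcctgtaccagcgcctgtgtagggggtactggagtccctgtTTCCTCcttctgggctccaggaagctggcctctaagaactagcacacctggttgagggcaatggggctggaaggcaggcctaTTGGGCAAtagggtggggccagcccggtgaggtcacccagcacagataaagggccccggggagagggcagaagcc
Ngp held 2 matches to TTGCNNAA, beginning at bases -138 and -11 from the start, Ltf held 1 at -75 besides 1 match to GAGGAA at -157, and Camp held neither. Among 32851 mouse promoters of this length, 9.56% held a match to TTGCNNAA and 23.3% a match to GAGGAA. A match is a description of letters and not a binding site.

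Nearly all Ngp UMIs of the vehicle library came from a handful of cells. Ngp had 409 CPM (393 to 426) in vehicle neutrophils, 644 (625 to 664) in those of p38i and 33.8 (28.1 to 40.3) in those of p38KO, and the intervals of the 3 libraries did not overlap. It was detected in only 62 of 1843, 117 of 2283 and 23 of 1375 neutrophils, and the 1% of cells with most of it, 19, 23 and 14 cells, held 97.8%, 92.9% and 92.7% of its UMIs. A single vehicle cell had 792 Ngp UMIs and a single p38i cell 1031, while the highest p38KO cell had 78.

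Camp was still more concentrated. It had 267 CPM (254 to 281) in vehicle, 418 (402 to 434) in p38i and 3.00 (1.496 to 5.36) in p38KO, from 11 UMIs in 5 cells. It was detected in 14 vehicle and 39 p38i neutrophils, and the top 1% of cells held 100%, 99.4% and 100% of its UMIs. The p38i library was highest and the p38KO library lowest, with no overlap of intervals.

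Ltf had 159 CPM (149 to 170) in vehicle, 154 (144 to 163) in p38i and 13.6 (10.1 to 18.0) in p38KO. Vehicle and p38i overlapped for this gene, and p38KO lay below both. In vehicle and p38i the top 1% of cells held 95.8% and 94.0% of Ltf UMIs, but in p38KO they held 46.0%, since its 50 UMIs were spread over 41 cells with at most 3 in any of them.

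**Figure D1:**
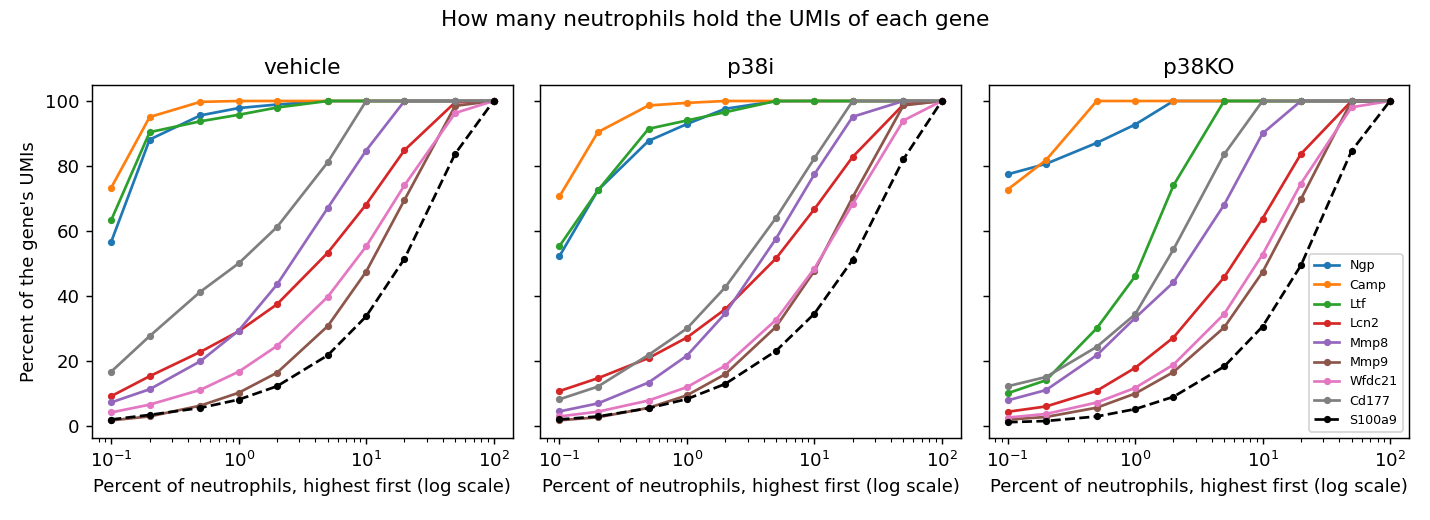
Share of each gene's UMIs (y axis, percent) held by the neutrophils with most of them (x axis, percent of gated neutrophils, log scale), 1 panel per library; the dashed line is S100a9. Ngp and Camp rise to over 90% within the top 1% of cells in each library, Ltf does so in vehicle and p38i but reaches 46.0% in p38KO, and at the top 1% Mmp9 stands at 10.1%, 9.34% and 9.88% and Wfdc21 at 16.6%, 11.9% and 11.6%, above the 8.03%, 8.19% and 5.11% of the dashed line. The UMIs are drawn without correction for the depth of each cell. With each cell thinned to 1500 UMIs, Wfdc21 stands at 7.59%, 5.66% and 9.20%.

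The cells behind these values were then counted. A granule-high neutrophil was taken as a gated cell with at least 10 UMIs of Ngp, Camp and Ltf together, a cut on a count and not a cell type. There were 11 of 1843 in vehicle (0.597%, 0.298% to 1.07%), 36 of 2283 in p38i (1.58%, 1.11% to 2.18%) and 2 of 1375 in p38KO (0.145%, 0.0176% to 0.524%). The p38i interval lay above both others, whereas those of vehicle and p38KO overlapped, and the gap between vehicle and p38i was narrow. These cells held 96.5%, 96.9% and 56.8% of the UMIs of the 3 genes.

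Higher cuts left fewer cells. At 30 UMIs or more there were 7, 15 and 1 cells, and at 100 or more 5 cells in vehicle (0.271%, 0.0881% to 0.632%), 9 in p38i (0.394%, 0.180% to 0.747%) and 0 of 1375 in p38KO, which allows a share of up to 0.218% by 3 counts and 0.268% by the upper end of the Clopper-Pearson interval. The intervals of vehicle and p38i overlapped at both of these higher cuts. The 5 and 9 cells held 93.0% and 89.2% of the UMIs of the 3 genes, so the summed CPM of these genes in the vehicle and p38i libraries rested on so few cells that its Poisson interval understates the error.

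**Figure D2:**
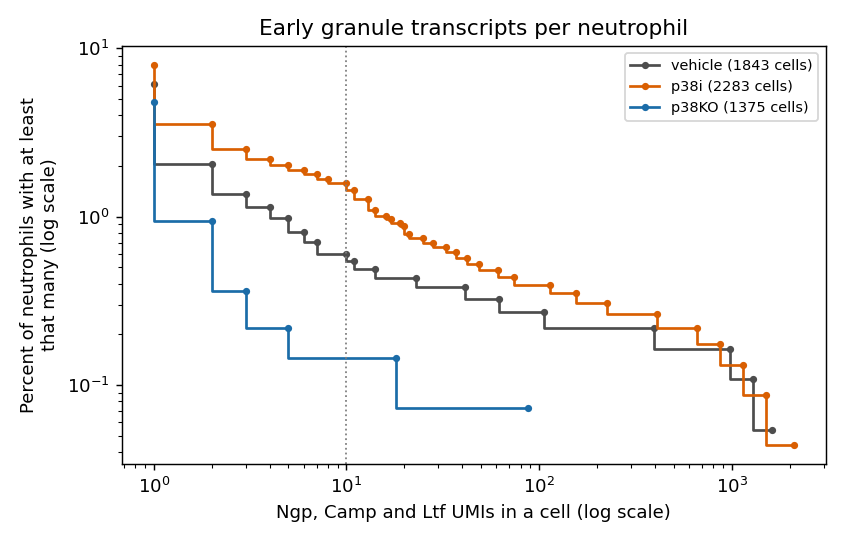
Percent of gated neutrophils (y axis, log scale) with at least a given number of Ngp, Camp and Ltf UMIs (x axis, log scale), 1 line per library; the dotted line marks 10 UMIs, the cut for granule-high cells. At the cut the lines stand at 0.597% (vehicle), 1.58% (p38i) and 0.145% (p38KO), and the p38KO line ends at a cell with 87 UMIs.

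Some cells of this kind fell outside the gate, because the gate drops a cell on a single Fn1 or C1qa UMI. Over all kept cells there were 18 of 3820 in vehicle (0.471%, 0.279% to 0.744%), 40 of 4793 in p38i (0.835%, 0.597% to 1.13%) and 3 of 3859 in p38KO (0.0777%, 0.0160% to 0.227%). On this wider base the intervals of vehicle and p38i overlapped and that of p38KO lay below both. Of the other 12 cells, 7 in vehicle, 4 in p38i and 1 in p38KO, 5 held 1 UMI of C1qa, 6 held 1 to 17 UMIs of Fn1, and 1 vehicle cell held Cd3e. That Cd3e cell stood alone: it had 20 Ltf UMIs of 5043, and no UMI of the other 7 members, S100a8 or S100a9.

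Granule-high cells were deeper than the rest of the gate by their median. Their median UMI count was 11214, 7809 and 10507.5 against 2472, 2182 and 2154 in the other gated neutrophils, and their median mitochondrial share 0.551%, 0.660% and 2.49% against 0.323%, 0.386% and 0.550%. Since a deeper cell reaches 10 UMIs more easily, each cell was thinned to 1500 UMIs, after which 10 or more remained in 0.271% of vehicle, 0.526% of p38i and 0.0727% of p38KO neutrophils. These shares are given without intervals and rest on few cells, so they do not set p38i apart from vehicle. The cell with most of these transcripts in the gate, in p38i, gave them 8.71% of its UMIs, and that of vehicle 6.54%.

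The content of these cells is given as a description, since they were chosen by 3 of the members. Of the 8 genes on the fixed azurophil list, Mpo, Ctsg and Bpi had 0 UMIs in the 11, 36 and 2 granule-high neutrophils and Elane 1, in p38i. Serpinb1a, the protease inhibitor on that list, had 69 UMIs in the vehicle cells and 130 in the p38i cells. Prtn3 (proteinase 3) had 10 UMIs in the p38i cells, 9 of them in 1 cell. Its level was 30.1 CPM against 7.97 CPM in the other p38i neutrophils. Prss57 had 5 UMIs in the p38i cells (15.04 against 3.66 CPM) and Ms4a3 3 (9.03 against 0 CPM). In the vehicle cells Prtn3 and Prss57 had 1 UMI each and Ms4a3 had 0, and in the p38KO cells none of the 8 had any. Mki67 and Top2a, which mark dividing cells, had 0 in all 3 libraries. Cebpe, the C/EBP factor required for specific granules, had 92.6 CPM in the vehicle cells and 87.3 CPM in the p38i cells. The other neutrophils had 5.66 and 7.49 CPM, and the 2 p38KO cells had no UMI. Of the 13 vehicle Cebpe UMIs 7 came from 1 cell, and of the 29 in p38i 16 came from 1 cell. Most granule-high neutrophils of each library held no Cebpe. Ccl3, Ccl4 and Ptgs2, inflammatory genes of neutrophils in tissue, had 0 UMIs in the 11 vehicle cells, while the other vehicle neutrophils had 1468, 1423 and 496 CPM. In the p38i cells they had 75, 35 and 12 UMIs, which is 226, 105 and 36.1 CPM against 907, 862 and 323 CPM in the others. In the 2 p38KO cells Ccl3 and Ptgs2 were also lower, at 1190 against 1373 CPM and 143 against 425 CPM. Ccl4 went the other way there, at 3902 against 1989 CPM. All 25 Ccl3 UMIs of the p38KO cells came from 1 cell, which had 18 UMIs of Ngp, Camp and Ltf together. Il1b was at 1083, 1288 and 4378 CPM in granule-high cells against 12092, 8645 and 12814 CPM in the others.

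Genes ranked highest by the lowest of the 3 libraries' ratios to the other neutrophils gave the same cells further features. Ly6g, the surface marker of mouse neutrophils, had 1674, 942 and 190 CPM in granule-high cells against 63.4, 39.7 and 44.9 CPM in the others. Ifitm6 stood at 8660, 6887 and 2046 CPM against 419, 390 and 233 CPM. Retnlg, a resistin-like protein of neutrophils, and Anxa1, the anti-inflammatory annexin, also ranked among the leading 15, as did Padi4, the enzyme that citrullinates histones. The other 10 were Aldh2, Adpgk, Cd55, Ggt1, Fmo5, Actn1, Ceacam10, Ppm1m, Cd3d and St3gal5. The p38KO side of this ranking rested on 2 cells, with 1 to 9 UMIs for most of these genes. Cd3d, a T cell receptor subunit, was also detected in 4.29% to 4.88% of all gated neutrophils, which held no Cd3e by the gate.

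Among the other specific and gelatinase granule genes, Fcnb, Orm1 and Olfm4 stood furthest apart by ratio between the granule-high cells of p38i and vehicle. Fcnb (ficolin-B) had 75.2 CPM in the p38i cells against 7.12 CPM, from 1 UMI, in the vehicle cells, Orm1 (orosomucoid) 120 against 35.6 CPM, and Olfm4 (olfactomedin 4) 957 against 128 CPM. Of the 25 p38i Fcnb UMIs, 14 came from 1 cell and 9 from another. Serpinb1a, on the azurophil list as an inhibitor of the azurophil proteases, had 391 CPM in the p38i cells and 491 CPM in the vehicle cells. The other neutrophils had 15.3 and 6.03 CPM. The kept cell with most Camp lay outside the gate and also held azurophil and cell cycle transcripts. It was a p38i cell with 3 Fn1 UMIs and 35661 UMIs in all, of which 1012 were Camp, 45 Prtn3, 33 Fcnb, 6 Elane, 8 Mki67 and 5 Top2a.

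Outside the granule-high cells the 3 genes were low and were detected in few cells. Ngp was detected in 51, 81 and 21 of these neutrophils, Camp in 5, 15 and 4 and Ltf in 48, 59 and 40. Ltf stood at 12.2 CPM (9.48 to 15.5) in vehicle, 11.2 (8.69 to 14.1) in p38i and 13.2 (9.70 to 17.4) in p38KO, and the intervals overlapped. In kept cells with Cd3e, read as a measure of free RNA with any doublets included, Ltf had 10.8, 2.08 and 1.06 CPM. The vehicle level in these T cells was close to that in the neutrophils, but 20 of its 44 UMIs came from 1 cell. The closeness therefore rested in large part on that cell. Camp stood at 1.10, 2.87 and 1.10 CPM from 6, 18 and 4 UMIs. Ngp stood at 17.0 CPM (13.7 to 20.8), 26.0 (22.1 to 30.3) and 7.67 (5.10 to 11.1), with no overlap. Once cells with 3 to 9 UMIs were left out too, Ngp fell to 7.78, 10.95 and 5.78 CPM and the intervals of the 3 libraries overlapped.

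Lcn2 (lipocalin 2, which binds bacterial siderophores) and Cd177 (a surface protein anchored on specific granule and plasma membranes) spread more widely. Lcn2 lies at chr2:32384633-32388252 on the minus strand of GRCm38. It had 1543.5 CPM (1511 to 1576) in vehicle, 1898 (1865 to 1931) in p38i and 1011 (979 to 1044) in p38KO, without overlap. After thinning to 1500 UMIs it was detected in 44.1% (41.8% to 46.4%), 49.7% (47.6% to 51.8%) and 39.5% (36.9% to 42.1%) of neutrophils, so p38i lay above vehicle while p38KO overlapped it. Without thinning the shares were 52.0%, 56.2% and 45.3%. Its UMIs were neither spread evenly nor held by a few cells: the top 1% of cells had 29.1%, 27.2% and 17.8% of them, against 8.03%, 8.19% and 5.11% for S100a9.

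Cd177 lies at chr7:24743983-24760311 on the minus strand. It had 65.2 CPM (58.7 to 72.2) in vehicle, 139.5 (131 to 149) in p38i and 38.1 (32.1 to 45.0) in p38KO neutrophils. The thinned detected share was 4.88% (3.94% to 5.97%), 10.7% (9.49% to 12.1%) and 4.44% (3.41% to 5.66%), high in p38i and overlapping between vehicle and p38KO, and the unthinned share was 8.79%, 17.2% and 6.69%. In vehicle the top 1% of cells held 50% of its UMIs, against 29.9% in p38i and 34.3% in p38KO. After thinning the shares were 40.3%, 24.4% and 34.7%.

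The collagenase Mmp8 and the gelatinase Mmp9, the main protease of gelatinase granules, differed from each other. Mmp8 (chr9:7558456-7568485, plus strand) had 221 CPM (209 to 233) in vehicle, 258 (246 to 271) in p38i and 112 (101 to 123) in p38KO, and thinned detected shares of 13.7% (12.2% to 15.4%), 16.4% (14.9% to 18.0%) and 9.67% (8.16% to 11.4%). Its CPM intervals did not overlap, and its p38KO share lay below that of vehicle. The unthinned shares were 19.6%, 23.7% and 13.02%.

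Mmp9 (chr2:164940780-164955850, plus strand) had 499 CPM (480 to 517) in vehicle, 510 (493 to 528) in p38i and 496 (474 to 519) in p38KO, and all 3 intervals overlapped. Its thinned detected shares were 40.3%, 41.3% and 40.5%, and its unthinned shares 52.3%, 52.0% and 49.7%. The top 1% of cells held 10.1%, 9.34% and 9.88% of its UMIs, the least of the 8 members in each library. The overlap held in this gate. When cells with Fn1 or C1qa were kept in, the Mmp9 log2 ratio of p38KO to vehicle was -0.57 and called lower, by the rule given with the ratios. All 8 members were lower there, where 377 of all genes were called lower and 3599 higher. Cells with C1qa numbered 444 in vehicle and 1126 in p38KO.

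Wfdc21, a secreted protein with a whey acidic protein domain that is abundant in mouse neutrophils, was the member detected in most cells. It lies at chr11:83746940-83752642 on the plus strand. It had 1977 CPM (1941 to 2014) in vehicle, 2709 (2670 to 2749) in p38i and 1145 (1110 to 1180) in p38KO. Thinned detected shares were 61.0% (58.8% to 63.3%), 72.4% (70.5% to 74.2%) and 50.3% (47.6% to 52.9%), with no overlap, and unthinned shares were 68.1%, 76.8% and 55.9%. The p38i library was high and the p38KO library low by both measures.

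**Figure D3:**
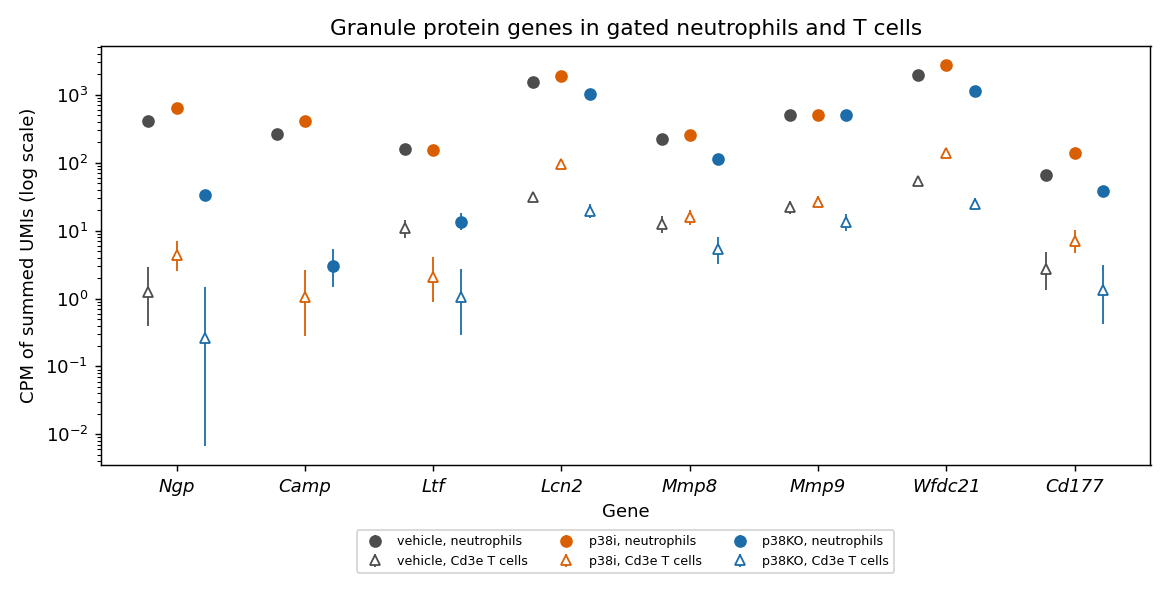
CPM of summed UMIs (y axis, log scale) of each member in gated neutrophils (filled circles) and in Cd3e T cells (open triangles) of the 3 libraries; bars are Poisson 95% intervals, hidden by the symbol where narrow, and Camp had 0 UMIs in T cells of vehicle and p38KO, which are not drawn. The neutrophil circles lie above the T cell triangles of the same library for each member, p38KO circles fall far below the others for Ngp, Camp and Ltf, and the Mmp9 circles are level.

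As a measure of free RNA, with any doublets included, the members were also read in the 605, 729 and 608 kept cells with Cd3e. Their median depth was 5370, 4081 and 4996 UMIs. For Lcn2 the thinned detected share in these T cells was 2.15%, 4.53% and 1.15%, for Wfdc21 2.81%, 5.35% and 2.47%, and for Mmp9 2.81%, 2.61% and 2.47%, all well below the neutrophil shares. Ngp was detected in 0.496%, 0.274% and 0% of thinned T cells, against 1.95%, 3.42% and 1.02% of thinned neutrophils. The intervals of both gates overlapped narrowly in vehicle (upper end 1.44% in T cells, lower end 1.37% in neutrophils) and not in p38i. In p38KO the 0 of 608 T cells allow up to 0.493% by 3 counts and 0.605% by Clopper-Pearson, and the neutrophil interval began at 0.558%, between these limits. Ltf was detected in 1.90%, 2.37% and 2.25% of thinned neutrophils and in 0.826%, 0.549% and 0% of thinned T cells. The vehicle shares of Ltf had overlapping intervals, so its detection there was not told apart from background, while those of p38i and p38KO did not overlap.

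Within the p38i library the broad members kept 1 ratio between T cells and neutrophils. T cell CPM was 4.98% of neutrophil CPM for Lcn2, 5.15% for Wfdc21, 5.14% for Mmp9, 5.02% for Cd177 and 6.13% for Mmp8, beside 5.18% for S100a8 and 5.15% for S100a9. Ngp, Camp and Ltf stood at 0.685%, 0.249% and 1.35%, with upper bounds of 1.10%, 0.637% and 2.67%. The other libraries kept no such single ratio. In vehicle S100a8 and S100a9 stood at 2.31% and 2.30%, Lcn2 at 2.03%, Wfdc21 at 2.68%, Cd177 at 4.16%, Mmp9 at 4.399% and Mmp8 at 5.59%, and in p38KO the same genes stood at 2.30%, 2.36%, 1.93%, 2.15%, 3.46%, 2.71% and 4.73%. Ngp stood below them at 0.301% in vehicle, and its 0.782% in p38KO rested on 1 T cell UMI. Camp had 0 T cell UMIs in both. Ltf went the other way, at 6.80% (4.91% to 9.21%) in vehicle and 7.76% (2.03% to 21.1%) in p38KO, the latter from 4 T cell UMIs. Of the 44 T cell Ltf UMIs in vehicle, 20 came from 1 cell without S100a8 or S100a9, so the vehicle ratio rested in large part on that cell. The T cell signal was itself uneven, with 69.3%, 52.6% and 69.9% of Wfdc21 UMIs in the top 1% of T cells. With a stricter T cell gate, described with the processing, the median ratio of the members fell from 3.42%, 5% and 2.43% to 0.219%, 0.166% and 0.244%, while Ltf stood at 8.13%, 0.704% and 7.20%. The vehicle cell with 20 Ltf UMIs held no Csf3r, Cxcr2, Fn1 or C1qa and so stayed in the stricter gate. In p38i S100a8 fell from 5.18% to 0.209% in the stricter gate. NK cells of p38i, gated without Csf3r and Cxcr2, had 115 CPM of S100a8 against 4104 CPM in T cells, and 5.49 against 94.5 CPM of Lcn2. Doublets were not removed, so free RNA and doublets cannot be told apart in the T cell values, and their parts were not tested.

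Other myeloid gates held less of the broad members. In cells with Fn1 (421, 778 and 362 cells) Lcn2 had 196, 287 and 118 CPM and Wfdc21 213, 261 and 107 CPM, and in cells with C1qa (444, 374 and 1126 cells) Lcn2 had 223, 144 and 115 CPM and Wfdc21 277, 195 and 99.6 CPM. By CPM Cd177 was the exception, with 61.1, 50.6 and 52.1 CPM in Fn1 cells. Its intervals there overlapped those of neutrophils in vehicle and p38KO. Mmp8 had 102, 123 and 83.1 CPM in Fn1 cells, below its neutrophil levels. Its thinned detected shares there were 9.98%, 13.1% and 6.08%, with intervals that overlapped those of neutrophils in each library. In NK cells Lcn2 had 2, 4 and 0 UMIs, and in the 27, 25 and 7 B cells it had 0.

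For p38i against vehicle, a gene was called by size where the log2 ratio of CPM was at least 0.5 either way, its interval left out 0 and both libraries had at least 20 counts together. Of the 8 members 3 were called higher and 0 lower, where 6.76% of the 9292 genes with enough counts were called higher and 3.26% lower. Cd177 had a log2 ratio of 1.10 (0.92 to 1.28), Ngp 0.65 (0.58 to 0.73) and Camp 0.64 (0.55 to 0.74). The ratios of Wfdc21 (0.45, 0.42 to 0.49), Lcn2 (0.30, 0.26 to 0.34) and Mmp8 (0.23, 0.12 to 0.33) lay above 0 but below the size limit, and those of Mmp9 (0.03, -0.04 to 0.11) and Ltf (-0.05, -0.18 to 0.08) included 0. The median of the members was 0.38, beside 0.094 over all genes with enough counts, a shift that scaling to the median gene removes. Where both Csf3r and Cxcr2 had to be detected, Ngp was at 0.04, Camp at -0.30 and Ltf at -0.69, so the p38i calls of Ngp and Camp did not hold in that gate while that of Cd177 did (1.05).

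For p38KO against vehicle, 7 of the 8 members were called lower and 0 higher, where 2.27% of 8979 genes were called lower and 14.4% higher. Camp had a log2 ratio of -6.48 (-7.48 to -5.63), Ngp -3.60 (-3.87 to -3.34) and Ltf -3.55 (-3.99 to -3.14). Mmp8 (-0.98, -1.15 to -0.82), Wfdc21 (-0.79, -0.84 to -0.74), Cd177 (-0.77, -1.06 to -0.49) and Lcn2 (-0.61, -0.67 to -0.55) were lower by less, and Mmp9 was at -0.01 (-0.09 to 0.08). The median of the members was -0.89, beside 0.17 over all genes with enough counts. With the mean CPM of single cells (called by size alone) and with cells thinned before summing, 5 members were lower: Lcn2 moved to -0.24 and -0.23 and Cd177 to -0.15 and -0.30. With the mean CPM 714 of all genes were called lower and 1652 higher, and with thinning 736 were called in either direction. Without cells over 3 times the median UMIs, 3 members were lower, where 1004 genes were called in either direction. For thinning and for this last setting the lower calls over all genes were not counted apart. Their member counts are therefore not read as results about the members. The same vehicle library enters both comparisons, and fewer neutrophils with a transcript and fewer transcripts per neutrophil cannot be told apart in a summed level.

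The ratios were computed again without the granule-high cells. These cells were chosen by Ngp, Camp and Ltf, so that the differences of these 3 genes shrink without them follows from the choice, whereas the other 5 members had no part in it. In p38KO 3 members stayed called lower and 0 were higher, where 2.22% of genes were now called lower and 13.8% higher: Ngp at -1.15 (-1.81 to -0.52), Mmp8 at -0.85 (-1.02 to -0.68) and Wfdc21 at -0.67 (-0.73 to -0.62). Lcn2 moved to -0.34 (-0.40 to -0.29), below the size limit, Cd177 to -0.21 (-0.54 to 0.10) and Ltf to 0.10 (-0.46 to 0.66), and Camp had 4 against 6 UMIs, too few for a call. In p38i 2 members stayed higher and 0 were lower, where 7.64% of genes were called higher and 3.1% lower: Cd177 at 1.31 (1.09 to 1.53) and Ngp at 0.61 (0.24 to 1.00). Camp, at 18 against 6 UMIs, had an interval that reached 0. Without the cells at 3 UMIs or more as well, the calls were Mmp8 and Wfdc21 lower in p38KO (-0.79 and -0.64) and Cd177 higher in p38i (1.29).

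**Figure D4:**
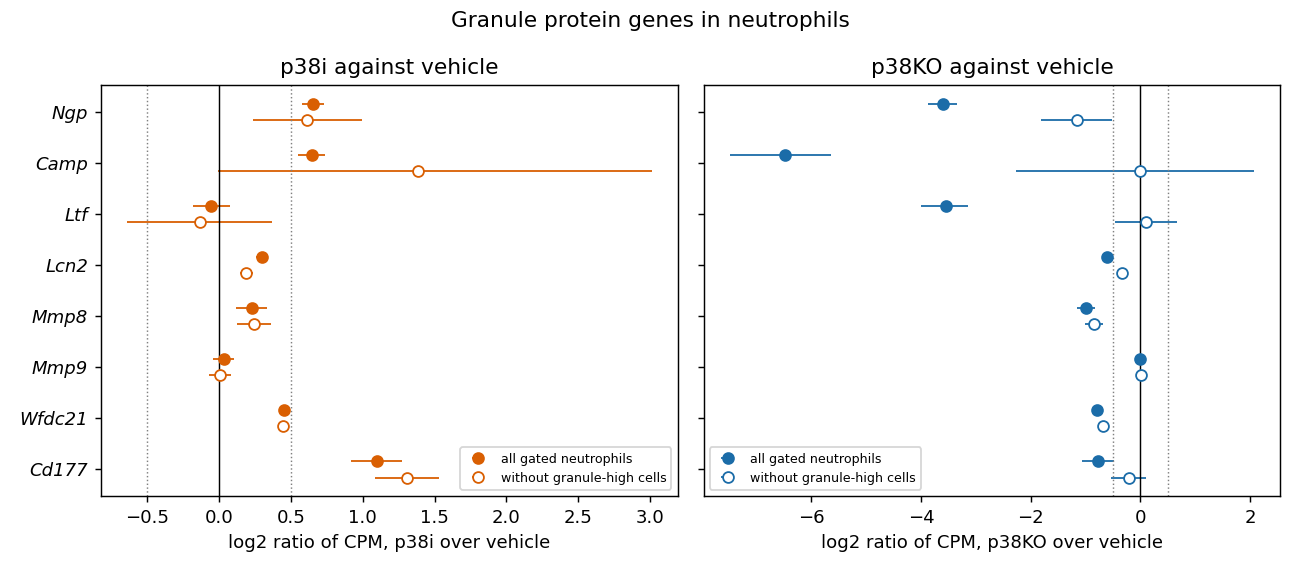
log2 ratio of CPM to vehicle (x axis) of each member in gated neutrophils, p38i left and p38KO right, with all cells (filled) and without granule-high cells (open); bars are 95% conditional binomial intervals, dotted lines mark 0.5 either way, and the panels have different x ranges. Granule-high cells were chosen by Ngp, Camp and Ltf, so the shift of these 3 follows from the choice. In p38KO, Ngp moves from -3.60 to -1.15 and Ltf from -3.55 to 0.10, and Mmp8 and Wfdc21 stay near -0.85 and -0.67.

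Neutrophils in tumors range from recent arrivals with Cxcr2, the receptor that recruits them, to cells that secrete Ccl3. Cells were therefore split by both transcripts after thinning to 1500 UMIs. Calls within these subsets have no share over all genes beside them, so counts of them are not read as results about the members. Cells with Cxcr2 alone made up 48.2%, 48.4% and 50.9% of gated neutrophils, cells with Ccl3 alone 18.9%, 14.2% and 14.9%, cells with both 16.6%, 17.1% and 20%, and cells with neither 16.3%, 20.3% and 14.2%. Of the granule-high cells, 4, 19 and 0 had Cxcr2 alone and 7, 13 and 1 had neither transcript, while 1 p38KO cell had Ccl3 alone and 4 p38i cells had both.

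Mmp9 differed between these subsets in each library. It had 663 CPM (632 to 696), 671 (642 to 701) and 714 (674 to 756) in cells with Cxcr2 alone and 266 (234 to 301), 309 (273 to 348) and 273 (230 to 322) in cells with Ccl3 alone, with no overlap between these subsets in any library. Cells with both transcripts lay between, at 487, 508 and 393 CPM. Its p38KO log2 ratio was -0.31 in those and -0.45 in cells with neither, below the size limit, and 0.11 and 0.04 in cells with Cxcr2 or Ccl3 alone.

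Wfdc21 differed between groups within each subset. In cells with Cxcr2 alone it had 2416 CPM (2357 to 2477) in vehicle, 3311 (3245 to 3377) in p38i and 1592 (1533 to 1654) in p38KO, and in cells with Ccl3 alone 1133 (1067 to 1202), 1900 (1810 to 1993) and 761 (688 to 840). The p38KO log2 ratio was -0.60, -0.57, -0.94 and -1.51 in cells with Cxcr2 alone, Ccl3 alone, both and neither, called lower in all 4. The p38i ratio was 0.45, 0.75, 0.52 and 0.23, of which those with Ccl3, alone or with Cxcr2, reached the size limit.

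Mmp8 was called lower in p38KO in all 4 subsets too, at -0.76, -1.75, -0.89 and -1.44 in the same order, with 20 against 124 UMIs in cells with Ccl3 alone. Lcn2 was uneven: its p38KO ratio was -0.37, 0.15 and -0.48 in the cells with Cxcr2 alone, Ccl3 alone and both. It was -1.72 in the cells with neither, which held 7 of the 11 vehicle granule-high cells. Without granule-high cells Lcn2 stood there at 543 CPM in p38KO against 1025 CPM in vehicle. In p38i Lcn2 reached the size limit in cells with both (0.70), and without granule-high cells it stood there at 1102 against 984 CPM in vehicle. Mmp8 in p38i reached the size limit in cells with Ccl3 alone (0.73). Cd177 was called higher in p38i in the Cxcr2, Ccl3 and double subsets at 1.32, 1.05 and 1.73, and had 0.33 in cells with neither. Its p38KO call rested on the cells with neither (-1.76), as the intervals of the other 3 subsets included 0.

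By summed UMIs, Ngp, Camp and Ltf changed direction between subsets, but these sums rested on few cells. In p38i they were called higher in cells with Cxcr2 alone (2.36, 2.16 and 2.23) and in cells with both transcripts, where Ngp was at 6.53 from 775 against 7 UMIs, Camp at 9.09 (6.61 to 14.4) from 654 against 1 and Ltf at 3.55. The double subset held 4 p38i granule-high cells and 0 of vehicle, and the Cxcr2 subset 19 and 4. Without these cells, chosen by the same genes, Ltf was at 20.8 CPM in p38i and in vehicle cells with both transcripts. With Cxcr2 alone it was at 7.82 against 8.70 CPM. Ngp was then at 15.2 against 7.66 CPM (both) and 33.4 against 25.7 CPM (Cxcr2 alone), and Camp at 4.73 against 1.09 and 2.84 against 1.98 CPM. With granule-high cells included, Ltf was called lower in p38i cells with neither transcript (-1.15), and Ngp (-0.39) and Camp (-0.22) lay below 0 within the size limit. In p38KO all 3 were called lower in cells with Cxcr2 alone (-2.60, -3.94 and -1.18) and in cells with neither (-3.94, -6.74 and -6.35). In p38KO cells with Ccl3 alone, which held 1 of the 2 granule-high cells, Ngp was called higher at 3.55 (1.79 to 5.95) from 19 against 3 UMIs and Ltf at 1.06 (0.0016 to 2.12) from 18 against 16. Of these 19 Ngp UMIs, 18 came from that 1 cell. Without it Ngp was at 1.96 CPM in p38KO against 3.12 CPM in vehicle, and Ltf at 35.2 against 16.6 CPM.

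**Figure D5:**
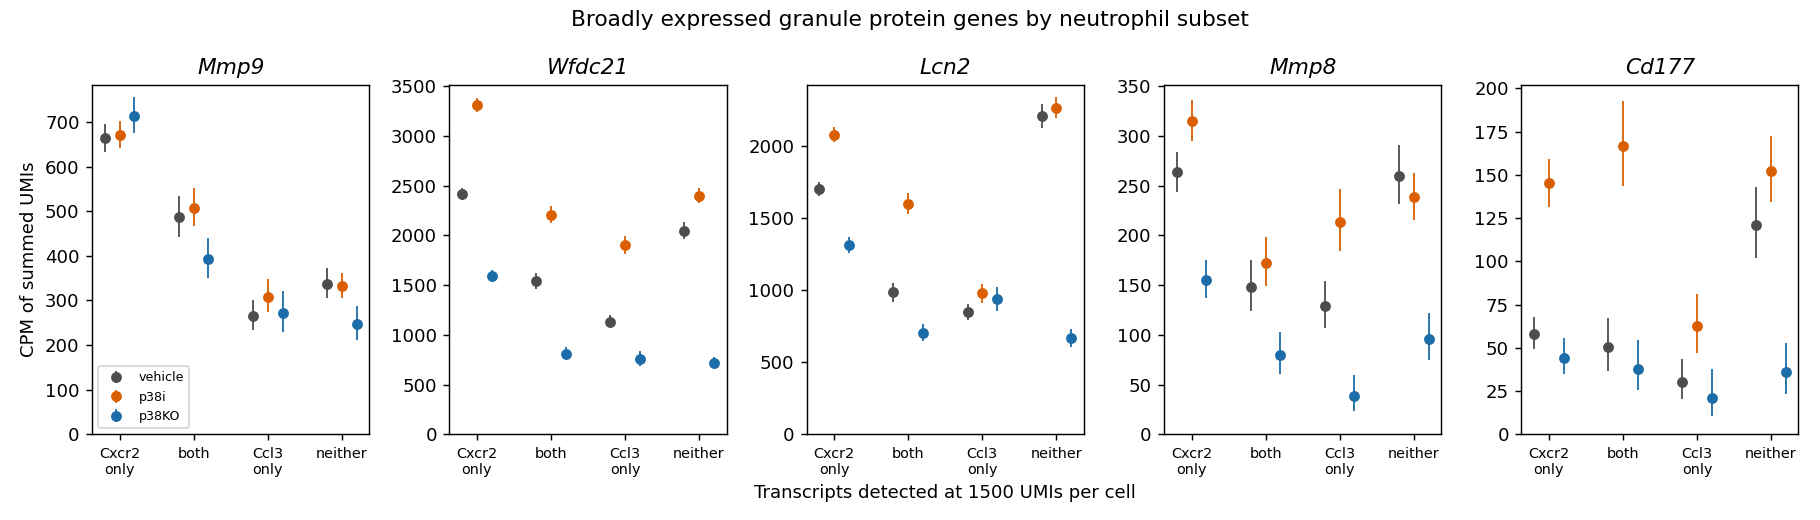
CPM of summed UMIs (y axis, from 0, own scale per panel) of 5 members in neutrophils split by Cxcr2 and Ccl3 detected after thinning to 1500 UMIs per cell (x axis), with Poisson 95% intervals, for the 3 libraries. Mmp9 falls from 663 to 714 CPM in cells with Cxcr2 alone to 266 to 309 CPM in cells with Ccl3 alone in each library, and Wfdc21 and Mmp8 of p38KO lie lowest in each subset.

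Lcn2 tended to be found in the same neutrophils as Wfdc21 and Mmp8, and less so as Mmp9. Lcn2 was detected in 56.8% of vehicle cells with Wfdc21 and in 24.2% of those without, in 58.2% and 27.5% in p38i, and in 52.7% and 26.2% in p38KO, all at 1500 UMIs. Mmp8 was detected in 20.4% of vehicle cells with Lcn2 and 8.45% of those without, in 25.1% and 7.84% in p38i and in 16.0% and 5.53% in p38KO. For Mmp9 the shares with and without Lcn2 were 44.0% and 37.4% in vehicle, 47.6% and 35.2% in p38i and 45.9% and 37.0% in p38KO. With and without Wfdc21 they were 46.0% and 31.3%, 45.9% and 29.4%, and 49.5% and 31.4%. At least 3 of the 8 members were detected in 24.3% of vehicle, 32.5% of p38i and 18.6% of p38KO neutrophils, and none in 17.6%, 13.2% and 24.1%.

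Other granule genes were read from fixed lists. Over all genes with enough counts, 6.76% were called higher and 3.26% lower in p38i, and 14.4% and 2.27% in p38KO. Of 18 further specific and gelatinase granule genes, 17 had enough counts in p38i, with 4 higher and 0 lower and a median of 0.18, and 15 in p38KO, with 0 higher and 1 lower and a median of -0.04. The 4 were Retnlg (0.84), Chil3 (0.76), a chitinase-like protein, Orm1 (1.90) and Fcnb (4.41, from 25 UMIs against 1), and the 1 was Retnlg (-1.16). All 25 p38i Fcnb UMIs, and 40 of Orm1, lay in granule-high cells. Without these cells 15 genes of this list had enough counts in p38i, with 1 higher and 1 lower. Of all genes 7.64% were then called higher and 3.1% lower. Of 8 azurophil granule genes, 3 had enough counts in p38i, with Prtn3 (0.92) and Serpinb1a (0.91) higher, and 2 in p38KO, with Prtn3 (-1.82, from 5 UMIs against 27) lower. Of 8 granulocyte transcription factors 0 of 7 with enough counts were called in p38i, and Cebpa (1.01) and Runx1 (0.53) were higher in p38KO. In the gate without the further myeloid, mast and B cell transcripts, 1 factor was higher in p38KO and 6 had enough counts.

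Maturity and recruitment genes gave 3 of 11 lower in p38i, the inflammatory genes Ccl4 (-0.75), Ccl3 (-0.71) and Ptgs2 (-0.65), with a median of -0.34. In p38KO Cxcr4 (0.62), a marrow-homing receptor, and Ccl4 (0.53) were higher and Vegfa (-0.55), the angiogenic factor, was lower, with a median of 0.31. The shares over all genes were 3.26% lower in p38i, and 14.4% higher and 2.27% lower in p38KO. With the further myeloid, mast and B cell transcripts left out, 2 of the 11 were higher and 0 lower in p38KO, so the Vegfa call did not hold. Without granule-high cells 1 was higher and 1 lower. Of 8 cell cycle genes, only Stmn1 (1.42) was called in p38i, while 7 were higher in p38KO, with a median of 1.94. In the gate without the further myeloid, mast and B cell transcripts, 1 of these 7, Pcna, stayed higher (0.52) and 3 of the 8 genes had enough counts.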

How the data were processed

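Live CD45+ cells from 4T1 tumors were sequenced as 1 library per group. Cell Ranger (6.0.0 in the file headers, mm10 in the labels) was run by the authors, who deposited raw UMI counts for every gene and barcode. The records also name R 4.2.1 and Seurat 5. The 3 matrices held 4588, 6343 and 5212 barcodes with 21675352, 25996832 and 25997636 UMIs, of which 3820, 4793 and 3859 cells passed the filter of 1500 UMIs, 300 genes and 20% mitochondrial UMIs. Doublets were not removed.

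Counts were summed over gated cells and given as CPM with exact Poisson intervals. Ratios carry exact conditional binomial intervals, with 0.5 in place of a count of 0, and shares carry exact Clopper-Pearson intervals, all at 95%. A count of 0 allows up to 3. Detected shares were read after thinning each cell to 1500 UMIs (seed 1), with Python 3.11.15, numpy 2.4.6, scipy 1.17.1, pandas 2.3.3 and matplotlib 3.10.9. Cells with Cd3e were T cells whatever else they held; the stricter T cell gate left out those with Csf3r, Cxcr2, Fn1 or C1qa, so its ratios are low partly by construction. Macrophages had C1qa, and monocytes Fn1 without C1qa, both without Cd3e. The scripts were tested on simulated data. Gene positions are from GENCODE M21, promoters from RefSeq on GRCm38.p6; Mmp9 and Wfdc21 had no promoter there.

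The genes named are the members, the fixed lists and the 15 genes most enriched in granule-high neutrophils (at least 20 counts, 1 or more in each library, 10 CPM added, mitochondrial, ribosomal, Gm-numbered and Rik genes left out); single cells were chosen after their values were seen. The members and lists were chosen with earlier results of these data known. The records differ on the number of sorted cells and the 10x chemistry, neither of which enters a value.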

Additional observations from a re-analysis of the deposited data

Results flagged for a closer look

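In kept cells with C1qa and no Cd3e, the p38i log2 ratio to vehicle had the opposite sign to that in gated neutrophils for Ngp and Camp. Ngp was at -0.81 there and at 0.65 in neutrophils, and Camp was at -0.95 and 0.64. The difference was not tested, since each group has 1 library. The C1qa values rested on 3 granule-high cells in vehicle and 1 in p38i, each with 1 C1qa UMI, which held 98.6% and 98.5% of the gate's Ngp, Camp and Ltf UMIs.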

How the results depend on the processing

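No paired analysis was possible because each group had 1 library, and none could be left out. At main settings 931 genes in p38i and 1496 in p38KO were called in either direction. Where both Csf3r and Cxcr2 were required, 1 member was higher and 1 lower in p38i (Cd177 1.05 and Ltf -0.69), where 418 genes were higher and 276 lower. Camp was at -0.30 in p38i, within the size limit, the p38i granule-high share was 2.20%, and 877 genes were called in p38KO. In that gate 1 member had a p38KO detected share below vehicle, against 2 in the main gate and 4 without thinning. This count of detected shares has no share over all genes beside it and is not read as a result about the members. The gate without further myeloid, mast and B cell transcripts gave 925 genes in p38KO and a p38i share of 1.01%, mean CPM of single cells, called by size alone, 2214 and 2366 genes, and thinning before summing 736 in p38KO. A size limit of 1 left 298 and 648 genes, with 1 member higher in p38i and 3 lower in p38KO. Without granule-high cells 3 members were lower in p38KO (Ltf 0.10). Without cells over 3 times the median UMIs 3 were lower (Ltf 0.23) and the granule-high shares were 0.225%, 0.555% and 0%.

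At 3 UMIs or more the vehicle and p38i shares were 1.36% and 2.54%, at 30 or more the p38i share was 0.657%, and after thinning they were 0.271% and 0.526%. Thinning left 1 member with over 90% of p38i UMIs in the top 1% of cells, against 3. The stricter T cell gate gave median ratios of 0.219%, 0.166% and 0.244%. Chosen after seeing the data, the gate that kept Fn1 and C1qa cells gave 3976 genes in p38KO and all 8 members lower (Mmp9 -0.57), all kept cells gave a p38i share of 0.835%, and leaving out cells at 3 UMIs or more gave 1 member higher in p38i and 2 lower in p38KO (Camp 0.57, Ltf 0.25). Without cells at 3 UMIs or more 974 genes in p38i and 1420 in p38KO were called in either direction. The calls here, at the size limit of 1, after thinning and without cells over 3 times the median UMIs were not split by direction. Their member counts are therefore not read as results about the members. Scaling to the median gene moved the share of calls that were higher from 67.5% to 46.7% in p38i and from 86.4% to 62.6% in p38KO. The cause of these changes was not tested. Of the other counts and shares compared, 98 stayed within the limits set. Of the members' detected shares under other settings 66 stayed and 54 moved. Of their log2 ratios 89 stayed and 83 moved with the same sign. Another 9 moved and 6 stayed with a change of sign, all of them Mmp9 or, in p38i, Ltf, neither called at main settings. A further 5 reversed in sign, in members called at main settings. These were Camp in p38i (-0.30, both receptors required), Ltf in p38KO (0.10, 0.23 and 0.25) and Camp in p38KO (0.57, from 3 against 3 UMIs). The Ltf values of 0.10 and 0.25 and the Camp value of 0.57 came after leaving out cells chosen by Ngp, Camp and Ltf. Depth limits Camp in p38KO, which rested on 11 UMIs at main settings.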
